A study of Mus musculus with 8 samples.

Results

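The subject is 10 genes of oxygen sensing and glucose use, read as accessible chromatin in hippocampal microglia, the resident macrophages of the brain. They are Hif1a, Epas1, Egln1, Egln3, Vegfa, Flt1, Slc2a1, Bnip3, Ldha and Aldoa, chosen by name and 10 of the 21883 protein-coding genes of the mouse annotation used. Every peak inside a gene's annotated span, or within 20 kb on either side of it, was assigned to that gene, and this whole interval is called its locus. Merging peaks that shared at least 1 bp across libraries gave 52 regions in the 10 loci, of 52177 regions genome-wide.

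Cells respond to low oxygen mainly through hypoxia-inducible factors, in which an oxygen-labile alpha subunit (the products of Hif1a and Epas1) pairs with a stable partner. Prolyl hydroxylases of the Egln family mark the alpha subunit for degradation while oxygen is present. Stabilised factors bind short DNA elements and act on genes for vessel growth, glucose uptake, glycolysis and the clearance of mitochondria, and macrophages also use this programme when they are activated.

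The measurements were made by ATAC-seq, in which a transposase cuts open DNA and the pile-up of cut fragments is called as peaks. There were 4 libraries from FGR mice, whose growth was restricted before birth, and 4 from control (Ctrl) mice. All 8 came from microglia of the hippocampus at 3 weeks after birth, and all mice in both groups carried 1 copy of a red fluorescent reporter at Tmem119, a gene of microglia (genotype Tmem119-tdTomato+/-). The comparison addresses whether restricted growth before birth goes with a different chromatin state in these cells. How growth was restricted, the sex and number of mice per library, pooling of mice and any sort of cells on the reporter remain not given in the sources used here. P-values therefore measure only the spread between these libraries, which may be technical.

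The lists held 27209, 23327, 29501 and 26246 peaks in FGR libraries 1 to 4, against 16111, 10862, 22705 and 24195 in Ctrl libraries 1 to 4. Background coverage was 3.52 to 4.82 extended reads per base in FGR libraries and 3.01 to 6.05 in Ctrl libraries. Several libraries stood apart. Median peak width was 353 to 358 bp in FGR libraries, against 566, 522, 368 and 386 bp in Ctrl 1 to 4. The summits of Ctrl 1 and 2 rarely fell on the same base as those of the other 6 libraries (0.00707% to 0.0729% of shared regions) or of each other (0.912%). FGR 1 and 3, and FGR 2 and 4, placed 7.58% to 9.15% of shared summits on the identical base, against 1.75% to 2.14% for the 13 other pairs without Ctrl 1 or 2, so the 4 FGR libraries may not be 4 separate samples. Of the 7 regions of the 10 loci called in exactly 2 FGR libraries, 5 were called in FGR 1 and 3 or in FGR 2 and 4. The same share was not counted over all regions, so nothing is read from it. Given these widths and summits, the differences at Flt1 and Aldoa are also given without Ctrl 1 and 2. They are also given with libraries 1 and 3 and libraries 2 and 4 of each group averaged. In Ctrl the summits gave no ground for this pairing: Ctrl 1 and 3 shared 0.00707% of them, and Ctrl 2 and 4 shared 0.0396%. Of 16 microglia markers, 6, among them Tmem119, Cx3cr1 and Irf8, had a peak at their start in all 8 libraries, while Gpr34 and Selplg had none there and P2ry12 had it in FGR 4 only. In a bulk library, fewer cells with an open site and a less open site in every cell cannot be told apart.

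The chromatin of most of these genes was open at the gene start in both groups. A start peak is any peak touching the window from 1 kb before to 1 kb after a RefSeq start. Hif1a, Egln1, Egln3, Slc2a1, Bnip3, Ldha and Aldoa had a start peak in all 8 libraries, which is 7 of 10 genes beside 33.0% of all 21883 genes. Epas1, with no listed start, was read at either end of its span and had such a peak in 4 of 4 FGR and 2 of 4 Ctrl libraries. Flt1 had a start peak in 4 of 4 FGR libraries and in 1 of 4 Ctrl libraries. Vegfa had none in any library, as did 41.5% of all genes. A start peak in at least 3 more FGR than Ctrl libraries, as at Flt1, occurred in 1.29% of all genes, and the opposite in 0.146%. In each FGR library 9 of the 10 genes had such a peak, against 7, 8, 7 and 9 genes in Ctrl 1 to 4. Over all genes, 45.9% to 49.8% had a start peak in FGR libraries and 36.0% to 49.5% in Ctrl libraries.

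**Figure D1:**
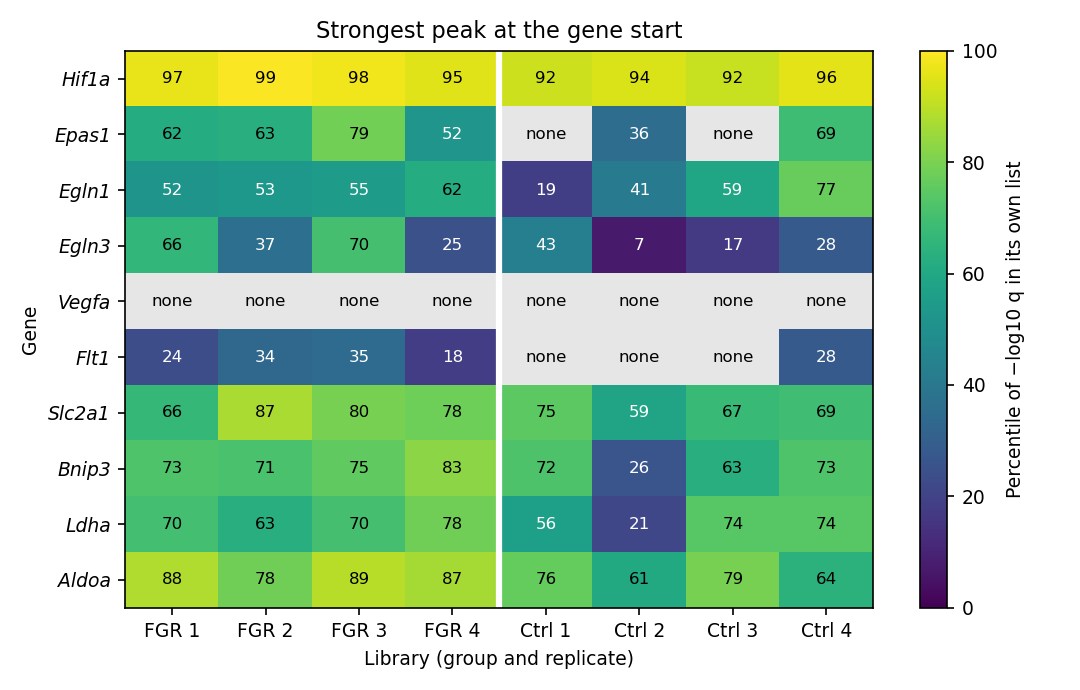
Strength of the strongest peak at each gene's start in each library, as its percentile (0 to 100) of −log10 q within that library's own list, with FGR libraries on the left and Ctrl libraries on the right; grey cells have no peak, and Epas1 was read at the ends of its span. Hif1a stands at 91.5 or above in all 8 libraries, Vegfa has no peak in any, and Flt1 stands at 34.8 or below in the 5 libraries that have one.

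Hif1a encodes the alpha subunit of hypoxia-inducible factor 1, and its start was the most strongly open of the 10. Strength is given as the percentile of a peak's deposited −log10 q within its own list, which describes rank in that list. Ranks from lists of different lengths show no change between libraries, so none was tested. The start peak of Hif1a stood at percentiles 96.6, 99.4, 97.7 and 95.0 in FGR 1 to 4, against 92.3, 94.5, 91.5 and 95.9 in Ctrl 1 to 4. It ranked near the top of every list, and the ranges of the groups overlapped. The region, chr12:73907325-73908716, held 2 peaks in FGR 1 to 4 and in Ctrl 3 and 4. In those libraries the stronger had its summit at −104 to −73 bp from the listed start, and the weaker at 612 to 716 bp, where negative values are upstream. Ctrl 1 and 2 had 1 peak there, 1135 and 884 bp wide. No region lay at the 5′ end of the annotated Hif1a span, 73901324, which is upstream of the listed start at 73907867.

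The promoter of Hif1a is printed because it lies under the strongest start peak, and it carried 3 matches to the core letters of the hypoxia response element. These letters are ACGTG and GCGTG, searched on both strands of the 300 bases from 250 before to 50 after each listed start. A palindrome such as CACGTG counts once on each strand. Of 21262 such RefSeq windows (GRCm38.p6, the coordinates of mm10), 20.9% held ACGTG, 38.5% held GCGTG and 49.3% held either. A match describes the letters only. Capitals mark the core letters, which read CACGT or CACGC where the match is on the other strand. The window is chr12:73907617-73907916 on the plus strand.
Hif1a: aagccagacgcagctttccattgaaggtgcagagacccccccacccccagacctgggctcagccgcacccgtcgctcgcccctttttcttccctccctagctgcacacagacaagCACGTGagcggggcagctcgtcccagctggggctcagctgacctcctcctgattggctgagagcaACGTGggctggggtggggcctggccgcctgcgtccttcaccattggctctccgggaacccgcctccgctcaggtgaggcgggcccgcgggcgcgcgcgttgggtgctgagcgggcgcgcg

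Elsewhere in the Hif1a locus, the region called in all 8 libraries was chr12:73964198-73964949 at the start of the neighbour Snapc1. The other 3 regions were each called in 1 FGR library and in no Ctrl library. The locus held 3, 4, 5 and 3 peaks in FGR 1 to 4, against 2, 2, 3 and 3 in Ctrl 1 to 4. To allow for list length, counts plus 0.5 were divided by the list's total and expressed per 10000 peaks, then compared on a log2 scale with limma over the 8034 loci averaging 2 or more peaks. On that scale the difference at Hif1a was −0.09 ± 0.25 (FGR minus Ctrl, SE, 4 libraries each; limma adjusted p = 0.837).

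Epas1 encodes the alpha subunit of hypoxia-inducible factor 2, which in the brain is known chiefly from endothelial cells. Its span is chr17:86753864-86833410, and the strongest region, chr17:86753066-86753732, lay just outside the end with the lower coordinate. The peak there stood at percentiles 61.8, 63.0, 78.9 and 52.3 in FGR 1 to 4, against 35.6 in Ctrl 2 and 68.8 in Ctrl 4, with none in Ctrl 1 and 3. Its summit pileup was 29, 28, 38 and 29 extended reads in FGR 1 to 4, against 19 in Ctrl 2 and 39 in Ctrl 4. The 4 other regions of the locus were each called in a single library, 3 of FGR and 1 of Ctrl. The locus held 2, 2, 1 and 2 peaks in FGR 1 to 4, against 0, 1, 1 and 1 in Ctrl 1 to 4, too few for the filter. Without the filter the difference was 0.36 ± 0.41 on the log2 scale (limma adjusted p = 0.638).

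Egln1 and Egln3 encode prolyl hydroxylases that use oxygen to mark the alpha subunits for degradation. Egln1 is the main oxygen sensor of most cells, and Egln3 is itself a target of the factors it controls. Both had a start peak in all 8 libraries, at middle or low rank. At Egln1 (chr8:124948456-124949817) it stood at percentiles 51.7, 53.2, 54.9 and 61.8 in FGR 1 to 4, against 18.6, 41.2, 58.7 and 76.7 in Ctrl 1 to 4. The 4 FGR values lay within the range of the Ctrl values. At Egln3 (chr12:54203081-54204018) it stood at 66.2, 36.6, 70.3 and 24.9 in FGR 1 to 4, against 43.2, 7.18, 16.9 and 28.3 in Ctrl 1 to 4. FGR 1 and 3 were the highest and Ctrl 2 the lowest, with overlap between the groups.

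The position of the Egln3 peak also varied. The summit of the strongest peak lay 4 to 16 bp downstream of the listed start in FGR 1, 2 and 3 and in Ctrl 3. In FGR 4 it lay 657 bp downstream, with a weaker peak at 5 bp (percentile 10.7), and in Ctrl 1, 2 and 4 it lay 146, 165 and 304 bp downstream. A region inside Egln3, chr12:54191980-54192286, was called in 4 of 4 FGR libraries and in Ctrl 3 and 4. In the Egln1 locus, the other region called in all 8 libraries was chr8:124897031-124898356 at the starts of Exoc8 and Sprtn. A region inside Egln1, chr8:124911875-124912283, was called in FGR 2 and 4 only, a pair with many identical summits. The Egln1 locus held 4, 5, 2 and 5 peaks in FGR 1 to 4, against 3, 2, 3 and 4 in Ctrl 1 to 4 (difference −0.26 ± 0.27 log2, limma adjusted p = 0.555). The Egln3 locus held 2, 3, 2 and 3 in FGR 1 to 4, against 1, 1, 2 and 3 in Ctrl 1 to 4 (difference −0.10 ± 0.32 log2, limma adjusted p = 0.863). Neither difference exceeded the spread between libraries.

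**Figure D2:**
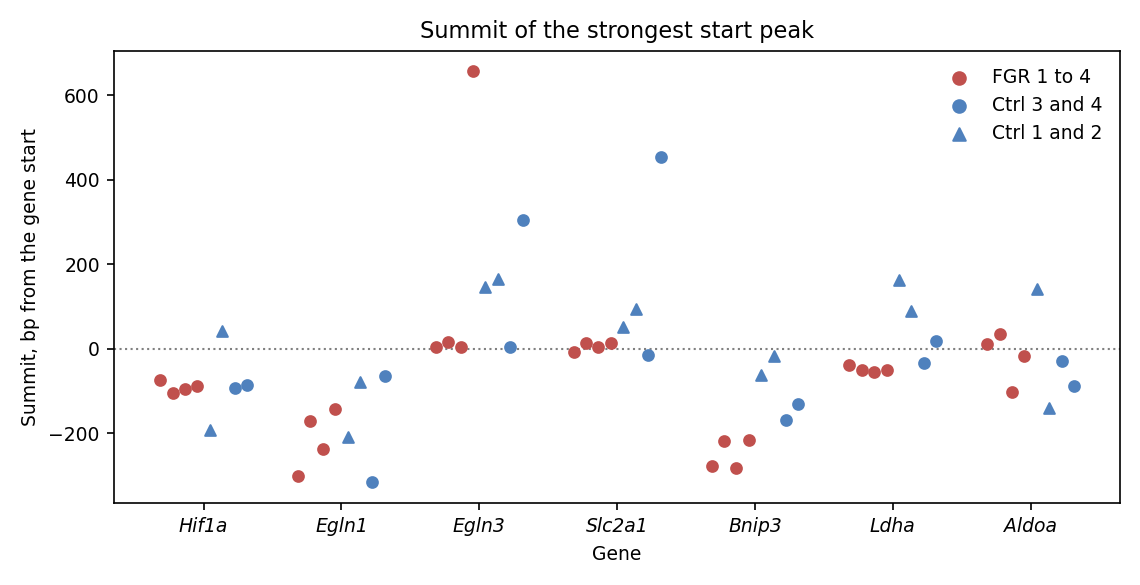
Distance in bp from the gene start to the summit of the strongest start peak, for the 7 genes with a start peak in all 8 libraries; each point is a library, positive values are downstream, and triangles are Ctrl 1 and 2. At Hif1a the 4 FGR libraries and Ctrl 3 and 4 lie between −104 and −73 bp, with Ctrl 1 at −192 bp and Ctrl 2 at 42 bp, and FGR 4 lies at 657 bp for Egln3.

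Vegfa encodes the main growth factor for blood vessels and a standard target of hypoxia-inducible factors. It was the gene of the 10 with no start peak in any library. Its 2 listed starts, at 46032377 and 46025163 on the minus strand of chromosome 17, lay outside every called region. The locus held 2, 0, 1 and 0 peaks in FGR 1 to 4, against 0, 0, 0 and 2 in Ctrl 1 to 4. The nearest peak, chr17:46030610-46030994 in Ctrl 4, had its summit 1463 bp downstream of the outer start, at percentile 14.3. The only region called in more than 1 library was chr17:46041162-46041508, with its median summit at −8895 bp, at percentile 29.1 in FGR 1 and 44.6 in FGR 3. Without the filter, the difference was −0.19 ± 0.52 on the log2 scale (limma adjusted p = 0.834).

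The outer promoter of Vegfa is printed as the start of a hypoxia target without a peak in any library. It has 62.0% G and C and 16 CpG dinucleotides. Windows with a peak in all 8 libraries had a median of 25 CpG (n = 6099), and windows with none had a median of 4 (n = 10231). Of the 9518 windows with at least 16 CpG, 1287 (13.5%) had no peak in any library. The window holds neither ACGTG nor GCGTG, and elements farther from the start were not searched. It is chr17:46032328-46032627 on the minus strand.
Vegfa outer start: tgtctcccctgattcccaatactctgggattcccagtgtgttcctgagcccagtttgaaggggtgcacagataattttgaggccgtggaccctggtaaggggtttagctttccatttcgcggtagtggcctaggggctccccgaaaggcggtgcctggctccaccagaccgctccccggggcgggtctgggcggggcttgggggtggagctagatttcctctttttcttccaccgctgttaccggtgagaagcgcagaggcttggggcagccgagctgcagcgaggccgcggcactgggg

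Flt1 encodes a receptor and decoy for VEGF, made by endothelial cells and by some monocytes and macrophages. It was the gene of the 10 that differed most between the groups. Its locus was also the longest, at 204835 bp against 45761 to 119547 bp for the others, and the part of length was not tested. The locus held 4, 3, 8 and 6 peaks in FGR 1 to 4, against 1, 1, 1 and 3 in Ctrl 1 to 4, so the raw counts met at 3. Raw counts of FGR stood wholly above Ctrl at none of the 10 genes, beside 4.12% of loci, and wholly below at none, beside 0.0124%. Per 10000 peaks of the list, these were 1.47, 1.29, 2.71 and 2.29 in FGR 1 to 4, against 0.621, 0.921, 0.440 and 1.24 in Ctrl 1 to 4. On this scale every FGR library stood above every Ctrl library, as at 1.46% of the 8034 loci, and at no other of the 10 genes. The reverse held at none of the 10, beside 5.80% of loci. The log2 difference was 0.96 ± 0.28 (SE, 4 libraries each), higher than at 99.3% of loci, and it missed the threshold (limma adjusted p = 0.130). The locus averaged 5.25 peaks in FGR libraries and 1.5 in Ctrl libraries, so it passed the filter of 2 only through the FGR libraries. Without the filter, the same difference stood higher than at 98.5% of loci (limma adjusted p = 0.104). It was 1.07 ± 0.35 without Ctrl 1 and 2 (adjusted p = 0.474) and 0.96 ± 0.29 with pairs averaged (2 against 2; adjusted p = 0.253). Within replicates 3 and 4, which carry later sample numbers than replicates 1 and 2, it was 1.45 ± 0.34 (adjusted p = 0.254).

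The peaks behind this count were weak and scattered. The strongest region of the locus, chr5:147542068-147542914, lies inside the neighbouring gene Pan3 and was called in all 8 libraries. It stood at percentiles 94.2, 97.2, 96.8 and 98.3 in FGR 1 to 4, against 88.0, 91.4, 95.2 and 89.4 in Ctrl 1 to 4. Outside Pan3 there were 3, 2, 7 and 5 peaks in FGR 1 to 4, against 0, 0, 0 and 2 in Ctrl 1 to 4. Of these 19 peaks in 10 regions, 7 regions were called in a single library. Their median percentile was 20.5, and their summit pileups of 14 to 26 extended reads were at most 10 above the lowest pileup called in the same list. With each list cut to the length of the shortest, keeping its strongest peaks, the locus held 1 peak in every library.

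The start region of Flt1, chr5:147725164-147726536, was the single region of the 52 called in at least 3 more FGR than Ctrl libraries, beside 4.32% of all regions. No region was called in at least 3 more Ctrl than FGR libraries, beside 0.217% of all regions. Its strongest peak stood at percentiles 23.6, 33.5, 34.8 and 18.0 in FGR 1 to 4, against 28.3 in Ctrl 4. It was not the same stretch in each library. FGR 1 and 3 had 2 peaks each, on either side of the listed start, and the peaks of FGR 2 and FGR 4 did not overlap each other. With each list cut to its strongest 10862 peaks, the length of the shortest, the share of libraries with a start peak differed by 0 between FGR and Ctrl, against 0.75 in the full lists. With a −log10 q of at least 5 it differed by 0.25, and without Ctrl 1 and 2 by 0.50.

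Markers of endothelial cells, which also use Flt1, were counted beside it. Of 12 such genes, none had a start peak in all 8 libraries and 8 had none in any, among them Cldn5, Pecam1, Tek and Tie1. Kdr, the main VEGF receptor of endothelium, had a start peak in 4 of 4 FGR and 2 of 4 Ctrl libraries. The 12 loci together held 8 to 17 peaks in FGR libraries (3.43 to 6.25 per 10000) and 3 to 9 in Ctrl libraries (2.64 to 3.72 per 10000). Markers of other cells were counted too, as raw peaks in FGR against Ctrl libraries. These were 7 to 10 against 0 to 8 for mural cells, 10 to 19 against 7 to 12 for astrocytes and 7 to 13 against 3 to 7 for neurons. For the oligodendrocyte lineage they were 11 to 12 against 3 to 11, and for border macrophages 7 to 11 against 3 to 11. Per 10000 peaks, mural markers held 3.00 to 3.68 against 0 to 3.31, and astrocyte markers 4.29 to 6.44 against 3.72 to 7.37. Neuron markers held 2.94 to 4.41 against 1.86 to 3.68. The oligodendrocyte lineage held 4.04 to 4.72 against 2.76 to 4.97, and border macrophages 3.00 to 4.04 against 2.76 to 4.55. On that scale the groups overlapped for each of these lists and for the endothelial list. The part of endothelial cells in the Flt1 counts was not tested.

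**Figure D3:**
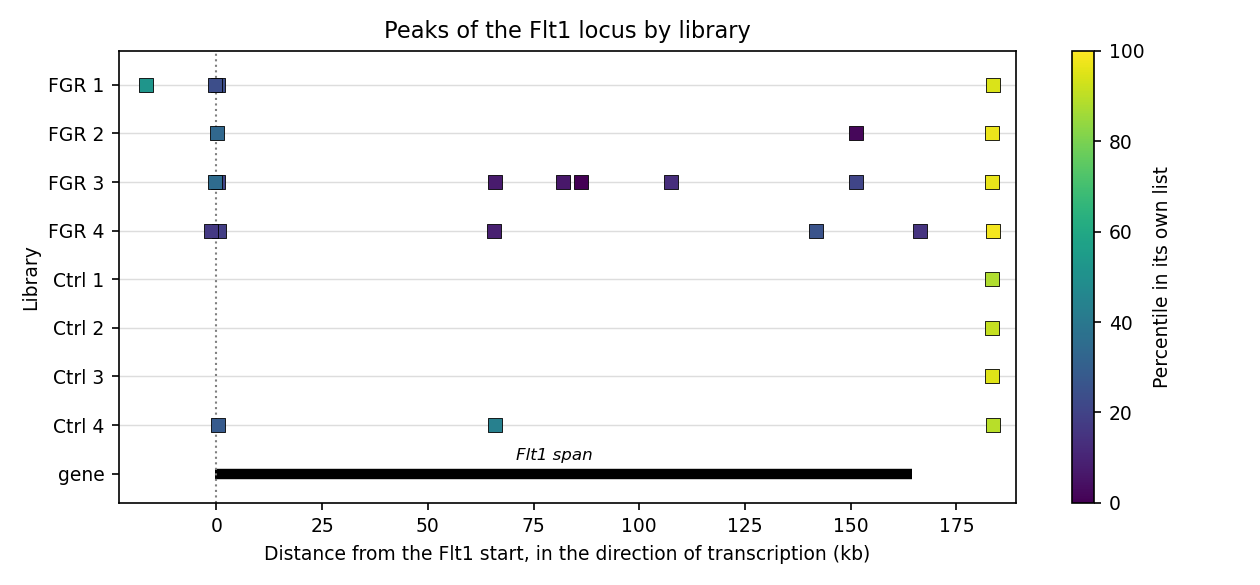
Peaks of the Flt1 locus in each library by distance in kb from the Flt1 start, in the direction of transcription, with FGR libraries above Ctrl libraries; each square is a peak coloured by its percentile in its own list, and the black bar is the Flt1 span. The peaks at the far right lie in Pan3 and are present in all 8 libraries, while the rest number 2 to 7 per FGR library and 0 to 2 per Ctrl library.

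The promoter of Flt1 is printed because its start peak differed most in presence between the groups among the 10 genes. Its 300-base window was overlapped by a peak in 2 FGR libraries and 1 Ctrl library, fewer than the 1 kb windows used for a start peak. It holds 1 match to GCGTG, on the other strand and beginning at base −184 from the start. It also holds GAGGAAG, letters bound by the macrophage factor PU.1, which occur on either strand in 13.6% of all windows. The window is chr5:147725962-147726261 on the minus strand.
Flt1: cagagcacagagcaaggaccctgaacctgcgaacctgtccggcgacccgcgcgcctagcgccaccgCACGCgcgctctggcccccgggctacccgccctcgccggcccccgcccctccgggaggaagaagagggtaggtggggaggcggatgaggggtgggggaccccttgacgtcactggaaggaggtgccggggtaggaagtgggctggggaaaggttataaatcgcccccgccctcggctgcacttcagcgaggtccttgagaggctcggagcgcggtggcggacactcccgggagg

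Slc2a1 encodes the glucose transporter GLUT1, which many cells use for basal glucose uptake. Its start peak (chr4:119108331-119109417) stood at percentiles 66.4, 87.2, 79.6 and 78.1 in FGR 1 to 4, against 74.7, 58.5, 67.3 and 69.4 in Ctrl 1 to 4. All 8 values were above the middle of their lists, and the groups overlapped. The summit lay at −7 to 13 bp from the start in FGR libraries, against −15 to 454 bp in Ctrl libraries. A second region inside the gene, chr4:119127155-119127661, lay 18697 bp downstream of the start and was called in 4 FGR libraries and in all Ctrl libraries but Ctrl 2. The locus held 5, 3, 3 and 2 peaks in FGR 1 to 4, against 2, 1, 3 and 3 in Ctrl 1 to 4 (difference −0.12 ± 0.27 log2, limma adjusted p = 0.791).

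Bnip3 encodes a mitochondrial outer membrane protein that promotes removal of mitochondria under low oxygen. Its start peak (chr7:138909167-138910057) stood at percentiles 72.5, 71.4, 75.4 and 82.7 in FGR 1 to 4, against 72.2, 26.4, 62.5 and 72.6 in Ctrl 1 to 4. Ctrl 2, the shortest list, was far below the other 7 libraries. A further region, chr7:138919254-138919968, had its median summit at −10252 bp from the start. It stood at percentiles 65.6, 70.8, 80.7 and 41.8 in FGR 1 to 4, against 73.8, 78.1 and 56.8 in Ctrl 1, 3 and 4, with no peak in Ctrl 2. The locus held 3, 3, 3 and 4 peaks in FGR 1 to 4, against 3, 1, 3 and 3 in Ctrl 1 to 4 (difference −0.19 ± 0.26 log2, limma adjusted p = 0.643). The promoter held 5 matches to the core letters, 2 to ACGTG and 3 to GCGTG.

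Ldha encodes a subunit of lactate dehydrogenase, the enzyme that turns pyruvate into lactate. RefSeq lists 2 starts, 46845804 and 46847082 on the plus strand of chromosome 7. The region over the first, chr7:46845545-46846167, was called in all 8 libraries. It stood at percentiles 70.3, 62.7, 70.4 and 78.5 in FGR 1 to 4, against 56.4, 21.3, 74.0 and 74.1 in Ctrl 1 to 4. Ctrl 2 was again the lowest and the groups overlapped. A region ahead of the second start, chr7:46846348-46846901, was called only in FGR 1 and FGR 3, a pair with many identical summits, at percentiles 23.1 and 14.2. A flanking region, chr7:46830793-46831715, was called in all 8 libraries, with its median summit at −14412.5 bp. The locus held 3, 2, 3 and 2 peaks in FGR 1 to 4, against 2 in each Ctrl library (difference −0.35 ± 0.30 log2, limma adjusted p = 0.475).

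The promoter at the first Ldha start is printed because it held the most matches to the core letters of the 13 windows of the 9 genes with a listed start. It held 7, of which 5 were ACGTG and 2 GCGTG, and 4 of the 5 lie in 2 palindromes that count on both strands. The second Ldha window held 2 matches. Of windows with a peak in all 8 libraries 71.7% held a match, against 30.8% of windows with none, and windows with a peak also had more CpG, as given for Vegfa. The window is chr7:46845554-46845853 on the plus strand.
Ldha first start: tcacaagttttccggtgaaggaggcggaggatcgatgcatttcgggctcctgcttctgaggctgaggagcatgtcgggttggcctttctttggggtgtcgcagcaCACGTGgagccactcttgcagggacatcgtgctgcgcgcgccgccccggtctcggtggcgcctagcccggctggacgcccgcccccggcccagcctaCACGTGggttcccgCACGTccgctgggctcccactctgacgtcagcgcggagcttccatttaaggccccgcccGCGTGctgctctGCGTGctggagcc

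Aldoa encodes aldolase A, which splits fructose bisphosphate in glycolysis, and its locus had the largest negative difference of the 8 genes tested. RefSeq lists 3 starts on the minus strand of chromosome 7, at 126800447, 126799254 and 126799178. The region chr7:126798776-126800105, over the inner 2, was called in all 8 libraries. It stood at percentiles 88.0, 78.2, 89.4 and 86.7 in FGR 1 to 4, against 76.3, 60.8, 79.4 and 64.2 in Ctrl 1 to 4. FGR 1, 3 and 4 were above all Ctrl libraries and FGR 2 was not. The 300-base window at the outermost start was overlapped by no peak in any library. The starts of the neighbours Ypel3 and Ppp4c were open in all 8 libraries.

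The Aldoa locus held 3, 5, 3 and 5 peaks in FGR 1 to 4, against 4, 4, 5 and 4 in Ctrl 1 to 4. FGR 2 and 4 were alike and high, FGR 1 and 3 alike and low. Per 10000 peaks these came to 1.02 to 2.14 in FGR libraries, against 1.65 to 3.68 in Ctrl libraries, with overlap. The log2 difference was −0.70 ± 0.26 (SE, 4 libraries each; limma adjusted p = 0.201). It was −0.36 ± 0.30 without Ctrl 1 and 2 (limma adjusted p = 0.785), and −0.70 ± 0.28 with pairs averaged (limma adjusted p = 0.260). Without division by list length it was −0.11 ± 0.20 (limma adjusted p = 0.750), and the raw counts averaged 4 in FGR and 4.25 in Ctrl libraries. The flanking region chr7:126808819-126809584 was called in FGR 2 and 4 and in all 4 Ctrl libraries.

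The outermost and the middle Aldoa promoters are printed together because the first had no peak in any library and the second had one in all 8. The outermost window has 52.7% G and C and 0 CpG, and the middle window has 65.7% and 24 CpG. The outermost holds no core match and the middle holds 1 to ACGTG, on the other strand and beginning at base −126 from its start. The middle window also holds TGANTCA, letters bound by AP-1 factors, which occur in 6.99% of all windows. The outermost window is chr7:126800398-126800697 and the middle window chr7:126799205-126799504, both on the minus strand.
Aldoa outermost start: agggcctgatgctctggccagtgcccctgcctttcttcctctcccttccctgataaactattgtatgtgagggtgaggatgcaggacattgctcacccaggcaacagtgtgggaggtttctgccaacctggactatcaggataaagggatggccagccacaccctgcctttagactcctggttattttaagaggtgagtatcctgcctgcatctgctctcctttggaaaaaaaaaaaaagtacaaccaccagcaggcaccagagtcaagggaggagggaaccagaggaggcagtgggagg
Aldoa middle start: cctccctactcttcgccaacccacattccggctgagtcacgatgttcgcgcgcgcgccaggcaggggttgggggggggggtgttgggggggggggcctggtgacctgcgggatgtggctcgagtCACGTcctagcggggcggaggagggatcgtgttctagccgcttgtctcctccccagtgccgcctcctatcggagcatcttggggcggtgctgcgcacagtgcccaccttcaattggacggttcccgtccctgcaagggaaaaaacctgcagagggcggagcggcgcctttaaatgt

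**Figure D4:**
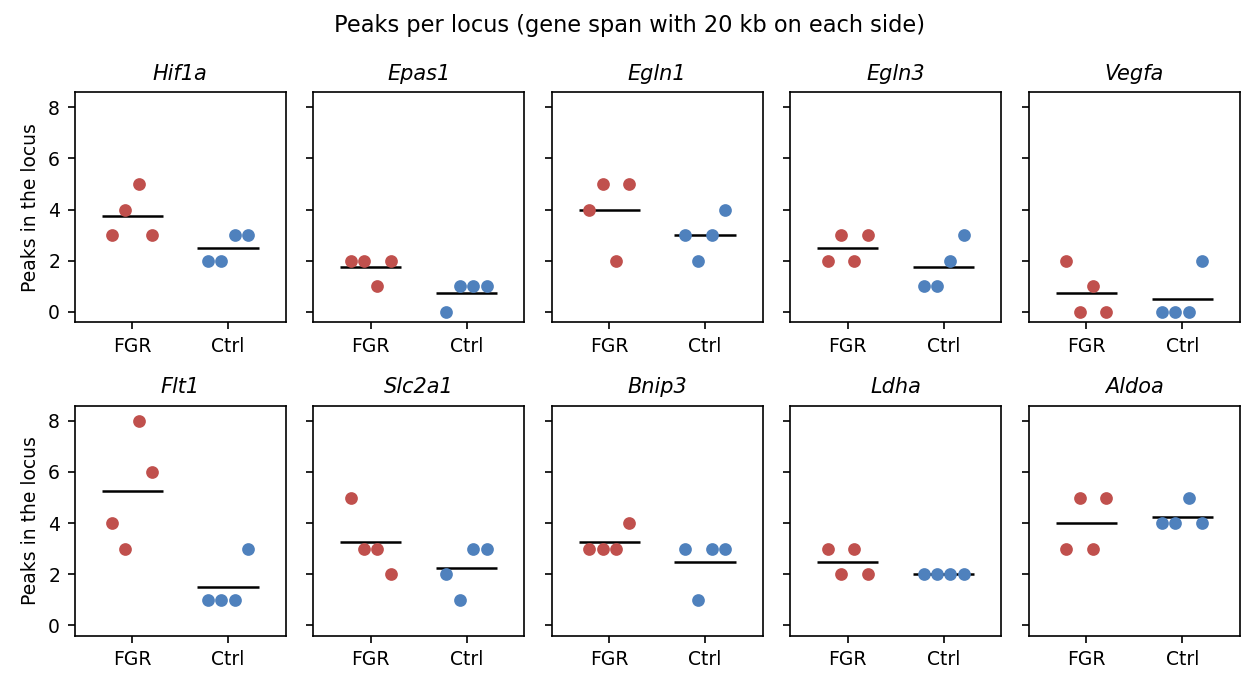
Number of peaks in each of the 10 loci, with FGR libraries (red) left of Ctrl libraries (blue); each point is a library and the line is the group mean, not adjusted for list length. Flt1 has 3 to 8 peaks in FGR libraries and 1 to 3 in Ctrl libraries, and the groups meet or overlap at all 10 genes.

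As a set, the 10 loci held a like share of all peaks in both groups. They held 31, 30, 31 and 32 peaks in FGR 1 to 4, against 18, 15, 23 and 28 in Ctrl 1 to 4. Per 10000 peaks of the list, these were 11.4, 12.9, 10.5 and 12.2 in FGR 1 to 4, against 11.2, 13.8, 10.1 and 11.6 in Ctrl 1 to 4. The means differed by 0.0674, less than the SD of 1.02 in FGR and 1.55 in Ctrl. Its sign was not stable, running from −0.45 without Ctrl 3 to 0.78 without Ctrl 2. No gene of the 8 tested passed the limma threshold of an adjusted p under 0.05, beside 0.0124% of the 8034 loci called higher in FGR and 0% called lower. At an unadjusted p under 0.05, Flt1 was higher and Aldoa lower, beside 2.60% of loci higher and 15.6% lower. The median difference was −0.16 over the 8 genes and −0.28 over all loci. Of the 8 differences 1 was positive, beside 22.5% of all loci. Without division by list length the median over all loci was 0.31. Division by list length moves every difference down by the same amount. Those of Hif1a, Egln1, Egln3, Slc2a1, Bnip3 and Ldha are negative with it and positive without it, and no direction is read from them. Among simulated loci changed by a fold of 4, 84.5% were called, and by a fold of 2, 0%. Folds between these were not simulated, and the simulated counts need not spread as the real ones do. A lack of calls therefore does not show that smaller differences are absent.

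Within the 10 loci, most regions at gene starts were called in all libraries and most others in few. Of the 52 regions, 13 were called in all 8 libraries, beside 16.9% of all regions, and 24 in 1 library, beside 45.9%. The 13 comprised 7 at the genes' own starts, 4 at starts of other genes, 1 in a flank and 1 inside Pan3. None of the 15 regions inside the genes and away from their starts was called in all 8. The median percentile was 72.4 for regions called in all 8 libraries, 24.7 for 2 to 7 libraries and 17.2 for 1 library. Regions called in FGR libraries only numbered 24 (46.2%, beside 42.3% of all regions), and those called in Ctrl libraries only numbered 4 (7.69%, beside 14.9%). No region was called in all libraries of a group and in none of the other, beside 0.866% of all regions for FGR and 0.0268% for Ctrl.

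**Figure D5:**
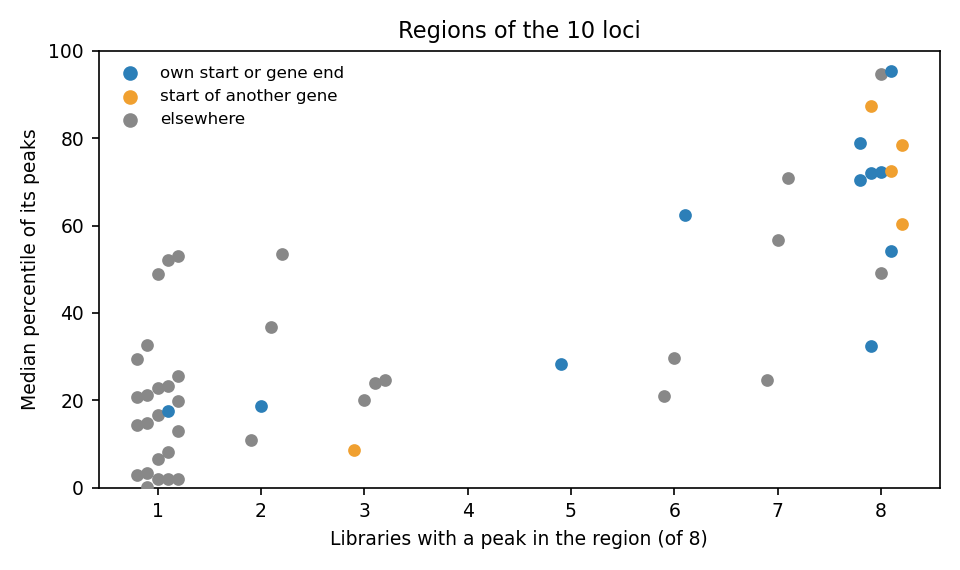
Each point is a region of the 10 loci, by the number of libraries with a peak in it (horizontal) and the median percentile of its peaks in their own lists (vertical), coloured by position. Regions called in all 8 libraries have percentiles of 32.5 to 95.5 and are mostly at gene starts, and regions called in 1 library stay at or below 53.1.

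The rest of the pathway was described by 49 further genes: regulators, angiogenic and other targets, transporters and glycolytic enzymes. Of these, 27 (55.1%) had a start peak in all 8 libraries. By role this was 6 of 9 regulators, among them the partner subunit Arnt and the ubiquitin ligase subunit Vhl, and 11 of 18 glycolysis genes, among them Hk2, Gapdh, Pgk1 and Pkm. It was 9 of 19 other targets and 1 of 3 transporters. Hif3a, Adm and Aldoc had no start peak in any library. Of the 49, 31 could be tested for peaks per locus and none passed the threshold, with 11 differences positive and 20 negative, where 22.5% of all loci were positive. At an unadjusted p under 0.05 (limma), 2 were higher in FGR and 3 lower, beside 2.60% of all loci higher and 15.6% lower.

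Presence at the start differed by 3 or 4 libraries toward FGR at 2 of the 49 (1.29% of all genes), and toward Ctrl at none (0.146%). Car12, a carbonic anhydrase induced by low oxygen, had a start peak in 4 of 4 FGR and 0 of 4 Ctrl libraries. It stood at percentiles 3.66, 11.3, 28.7 and 33.9 in FGR 1 to 4. The peaks of FGR 1 and 3 overlapped the start at chr9:66713686, and those of FGR 2 and 4 lay wholly to 1 side of it, so the pairs with many identical summits also shared position here. Cxcr4, a chemokine receptor induced by low oxygen, had it in FGR 1, 2 and 3 at percentiles 54.0, 31.0 and 42.7, and in 0 of 4 Ctrl libraries. Here too the peak of FGR 2 did not overlap those of FGR 1 and 3.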

How the data were processed

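Accessible chromatin was read from 8 peak lists, 1 per library, 4 FGR and 4 Ctrl. Transposition and library preparation used a Vazyme Hyperactive kit, per the labels' protocols. Per the submitters' processing notes, the tools were MACS2 2.2.7.1 and DiffBind 3.12.0 together with Bowtie2 2.4.5, Trim Galore 0.6.5 and SAMtools 1.3.1, and the build was mm10. Peaks were called per library. Whether reads were shifted, deduplicated or masked remains not given in the sources used here.

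The deposited fold is the authors' ratio of summit pileup to local background, each with a pseudocount added. For each peak the authors also deposited its significance as −log10 of p and of q. The deposited score was 10 times the −log10 q, cut to a whole number, for 99.9% to 100% of peaks in each list, and was not used. From fold and −log10 p, pileup and background could be recovered for 100% of peaks, within a tolerance of 0.001. The lowest local background of a list served as its depth, since read totals were not used here.

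Spans came from RefSeq (GRCm38.p6), and starts from its promoter table for 17491 of 21883 genes. The remaining 4392, Epas1 among them, were read at either end. The Epas1 promoter was not used here. The test of peaks per locus was limma (3.58.1, run in R 4.3.3) with a mean-variance trend and a pseudocount of 0.5 peaks. P-values were adjusted by Benjamini-Hochberg over the 8034 loci averaging 2 or more peaks. Other steps used Python 3.11.15, pandas 2.3.3, numpy 2.4.6, scipy 1.17.1 and matplotlib 3.10.9. In simulated counts with 200 loci changed by a fold of 4, 169 were called among 7162 tested, with 1 false call.

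All 10 genes are named. Regions named were the strongest of each locus, those differing by at least 3 libraries and those in all 8, and pathway genes those differing by at least 3 libraries; further genes and regions were chosen after their values were seen. The members, pathway and marker lists were chosen with earlier results of these data known. Alternatives were the pseudocount, the filter, list length, a stricter −log10 q, flank sizes, leaving out libraries, pairs averaged and a replicate block.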

Additional observations from a re-analysis of the deposited data

Results flagged for a closer look

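Among the 20 groups of 4 locus counts, 7 had a library set apart from the other 3 by Dixon's criterion, which chance meets in about 1 group of 20. Where 3 counts are tied, a difference of 1 peak is enough to meet it. In FGR libraries, the Epas1 locus held 1 peak in FGR 3 against 2 in the other 3, and the Bnip3 locus held 4 peaks in FGR 4 against 3. In Ctrl libraries, the Epas1 locus held 0 peaks in Ctrl 1 against 1 in the other 3, and the Bnip3 locus held 1 in Ctrl 2 against 3. The Vegfa locus held 2 peaks in Ctrl 4 against 0, the Flt1 locus held 3 in Ctrl 4 against 1, and the Aldoa locus held 5 in Ctrl 3 against 4. None of the 16 groups of start peak percentiles met the criterion.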

How the results depend on the processing

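Of 140 values of the 8 tested genes under other settings, 122 kept their sign and their side of the threshold. Flt1 stayed positive in the 18 settings where it was tested (0.67 to 1.83, adjusted p 0.0304 to 0.474). With equal-length lists and at a −log10 q of at least 5 it fell under the filter and was not tested. With equal-length lists the Flt1 locus held 1 peak in each library. At the stricter −log10 q it held 2, 2, 1 and 1 in FGR 1 to 4, against 1, 1, 1 and 2 in Ctrl 1 to 4. Aldoa stayed negative in its 20 settings (−0.87 to −0.11). The difference changed sign without division by list length at Hif1a (0.50), Egln1 (0.33), Egln3 (0.49), Slc2a1 (0.47), Bnip3 (0.40) and Ldha (0.24). It also did so without Ctrl 1 and 2 at Hif1a (0.078) and Ldha (0.067), within replicates 3 and 4 at Hif1a (0.078), at a −log10 q of at least 5 at Slc2a1 and Bnip3 (0.18 each), and with equal-length lists at Bnip3 (0.24). Leaving out a single library gave positive values of 0.0056 (FGR 1) and 0.059 (Ctrl 2) at Hif1a, 0.050 (FGR 3) at Egln1, 0.034 (FGR 3) at Egln3 and 0.052 (FGR 4) at Slc2a1. Over all single libraries left out, the lowest values were −0.24 at Egln3 and −0.31 at Slc2a1. The full range over settings was −0.19 to 0.50 at Hif1a, −0.44 to 0.33 at Egln1, −0.25 to 0.49 at Egln3, −0.49 to 0.47 at Slc2a1, −0.29 to 0.40 at Bnip3 and −0.50 to 0.24 at Ldha. The causes were not tested.

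Loci called over the whole genome, 1 higher and 0 lower in FGR, moved to 7 and 50 with a pseudocount of 1, 7 and 9 without the filter, 13 and 7 with equal-length lists, and 10 and 1 without division by list length. Loci called lower were 2 with 5 kb flanks. Loci called higher were 0 without Ctrl 1 and 2, within replicates 3 and 4, and with pairs averaged. Leaving out each library gave 0 to 8 higher and 0 to 7 lower. A replicate block called 54 higher and 87 lower and gave Flt1 an adjusted p of 0.0304 at 0.96. Deviations from the group means were correlated between libraries of the 2 groups. Same-numbered libraries gave −0.018, 0.098, 0.067 and 0.029, and differently numbered libraries −0.120 to 0.108. By the same measure FGR 1 with 3 and FGR 2 with 4, which share many identical summits, gave −0.093 and −0.154. This check therefore cannot decide whether the numbers pair the libraries.

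Genes with a start peak in all 8 libraries were 3, in place of 7, at a −log10 q of at least 5 (25.0% of all genes) and 5 with equal-length lists (22.3% of all genes). FGR-only regions, 24 in the full lists, were 1 with equal-length lists (5.56%, beside 14.7% of all regions), 11 at a −log10 q of at least 5 (37.9%, beside 29.5%) and 14 within replicates 3 and 4 (31.8%, beside 34.0%), and Ctrl-only regions, 4 in the full lists, were 1 under each of the first 2 (5.56%, beside 16.6%, and 3.45%, beside 10.9%); these were chosen after seeing the data. Regions called in all of a group and none of the other were 1 for FGR without Ctrl 4 (leave-one-out range 0 to 1) and 1 for Ctrl within replicates 3 and 4. The difference in share of all peaks, 0.0674 per 10000 in the full lists, was 0.86 with 5 kb and −1.39 with 50 kb flanks, −0.69 with equal-length lists, 1.01 at a −log10 q of at least 5, 0.89 without Ctrl 1 and 2, and −0.45 to 0.78 leaving out each library. Differences in list length limit what presence or absence of a weak peak can show.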
